A study of Homo sapiens with 6 samples.

Results

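The comparison described here set 2 arrays of a human kidney cell line transfected with a construct labelled hIMP1 wt against 2 arrays of the same line transfected with an empty vector, labelled mock. These 4 arrays were chosen by their labels out of 6 in all, and the other 2 carry another construct, hIMP1 Dmut, whose name the labels do not explain. The labels do not name the cell line, and they give neither the promoter that drives the constructs nor the time after transfection. Each array carries a replicate number, 1 or 2, and the change with hIMP1 wt is given within the arrays numbered 1, within those numbered 2, and over both. The labels do not say that the numbers stand for separate cultures, so the p-values below cover no more than array-to-array spread, which could be technical.

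IMP1 is the protein of the gene IGF2BP1, an RNA-binding protein of the VICKZ family. It binds selected mRNAs in cytoplasmic granules and is known for keeping some of them from decay and for setting where and when they are translated. The family is made in embryonic tissues and in many tumour lines and is low in most adult tissues. Heat shock genes and the genes of the unfolded protein response, which the results touch, are induced when proteins misfold in the cytosol and in the endoplasmic reticulum (ER).

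Each array read 54675 probe sets, groups of short probes, as linear intensities. A probe set can read more than 1 gene or transcript form. The array median was between 26.7 and 33.7. Signal at the 3' end over that at the 5' end, a sign of RNA quality, was 1.03 to 1.17 for the GAPDH controls and 1.44 to 1.67 for those of ACTB. Changes are differences of log2(intensity + 9.05). The standard error (SE) given with them is from a limma fit without the replicate number, unless stated. The 27307 probe sets in the brighter part of the array were kept. The offset makes the changes of dim probe sets smaller. Of 12 markers of the kidney lineage 7 were kept, with a summed intensity between 1015 and 1302 over the 6 arrays, while of 6 markers of the mature kidney only AQP2 was kept, at 6.2 to 58.2. Of 5 epithelial markers 4 were kept (1723 to 2047), of 5 neuronal markers 3 (3282 to 3942), of 7 fibroblast markers 2 (113 to 201), of 5 endothelial markers 1 (7.5 to 60.9) and of 5 blood markers 3 (111 to 230).

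The transfected gene itself did not pass the test at either of its probe sets. The brighter probe set of IGF2BP1 read 231 and 307 on the mock arrays numbered 1 and 2, and 226 and 326 on the hIMP1 wt arrays. Each hIMP1 wt array thus lay next to the mock array of its own number, and the groups overlapped. The change was -0.03 within number 1 and 0.09 within number 2 (0.03 ± 0.25 over both). A dimmer probe set read 188 and 93.2 with mock and 253 and 137 with hIMP1 wt, which is higher within both numbers (0.41 and 0.51) but overlaps across them. Its change was 0.46 ± 0.39, and with the replicate number as a term the SE was 0.19 (limma, unadjusted p = 0.032, adjusted p = 1.00). The files do not say which stretch of the transcript these probe sets read, so they do not check that the construct was expressed. IGF2BP2, another member of the family, differed in sign between the numbers at its brighter probe set (-0.25 and 0.31). Its dimmer probe set read 73.5 and 60.8 with mock and 97.9 and 85.5 with hIMP1 wt (0.37 and 0.44; 0.41 ± 0.29), and did not pass. The brightest probe set of IGF2BP3, the last member, differed by -0.05 and 0.04. Its other probe sets differed by 0.13 and 0.07, and by 0.33 and 0.01.

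HSPA6 rose with hIMP1 wt. It encodes an HSP70 chaperone that cells make almost only under stress. Its brighter probe set read 28.6 and 3.02 on the mock arrays, numbered 1 and 2, and 646 and 454 on the hIMP1 wt arrays. The other probe set read 13.6 and 2.57 with mock and 355 and 229 with hIMP1 wt. On both probe sets the mock arrays lay below the array median and the hIMP1 wt arrays far above it, with no overlap. At the brighter probe set the log2 change was 4.12 within number 1 and 5.26 within number 2, and 4.69 ± 0.44 over both, with a 95% interval from 3.71 to 5.67 (limma, adjusted p = 0.0119). At the other it was 4.01 and 4.36, and 4.18 ± 0.35 over both, with an interval from 3.41 to 4.95 (limma, adjusted p = 0.0071). The size is not well fixed, since both mock arrays lie below their array medians and the mock array numbered 2 lies below its lower quartile of 8.27. With the offset at the median or at the 10th percentile it was 3.68 or 5.37 at the brighter probe set and 3.04 or 4.99 at the other. Without mock replicate 1 it was 5.51 and 4.66, and without mock replicate 2 it was 3.87 and 3.70. The near-identical HSPA7 can add to this signal, and in RNA of a whole culture more responding cells and more RNA per cell cannot be told apart.

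These 2 probe sets were 0.00732% of the 27307 tested, in either direction and among higher calls alike, and the count of lower calls was 0, or 0%. Per gene, read by its brightest probe set, 1 of 12269 genes passed (0.00815%). Without adjustment limma gave a p under 0.05 to 114 probe sets that were higher and 167 that were lower. With the replicate number as a term limma gave it to 313 and 392. Both fits gave fewer than evenly spread p-values would give across 27307 probe sets, so these counts are not read as differences. With only the 4 arrays compared the adjusted p of HSPA6 was 0.234 at both probe sets, and it lay between 0.171 and 0.212 without either hIMP1 Dmut array. The count is 0 in these fits, in which the change itself stays 4.69 and 4.18.

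The bases before the start of HSPA6 are shown because the gene is the single call, and because heat shock factors bind repeats of GAA and its complement TTC. The stretch is the 250 bases before the RefSeq start on GRCh38.p14, chr1:161524290-161524539 on the plus strand. Capitals mark matches to a heat shock element, either of 3 units (GAA, 2 bases, TTC, 2 bases, GAA, or TTC, 2 bases, GAA, 2 bases, TTC) or of 2 units (GAANNTTC or TTCNNGAA), on both strands.
HSPA6: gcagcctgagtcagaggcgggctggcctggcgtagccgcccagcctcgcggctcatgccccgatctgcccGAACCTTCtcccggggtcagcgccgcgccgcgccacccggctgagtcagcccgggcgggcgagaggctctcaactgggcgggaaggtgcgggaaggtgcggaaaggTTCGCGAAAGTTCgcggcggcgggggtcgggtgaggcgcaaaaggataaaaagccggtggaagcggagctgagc
The 3-unit match lies 74 to 62 bases before the start and holds 2 overlapping 2-unit matches, and a separate 2-unit match lies 180 to 173 bases before it. Of 35116 promoters in the table, 155 hold a 3-unit match (0.441%) and 4067 a 2-unit match (11.6%). DNAJB1, the HSP40 partner of HSP70 described next, has 3 starts in the table, and the one shown is the start that holds matches, chr19:14518398-14518647 on the minus strand.
DNAJB1: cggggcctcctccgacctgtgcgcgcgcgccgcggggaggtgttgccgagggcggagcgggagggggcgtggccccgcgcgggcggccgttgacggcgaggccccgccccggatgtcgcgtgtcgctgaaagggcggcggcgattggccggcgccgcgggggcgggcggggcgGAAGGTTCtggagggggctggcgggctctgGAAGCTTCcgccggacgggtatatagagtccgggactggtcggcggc
Its 2-unit matches lie 77 to 70 and 47 to 40 bases before the start, and neither it nor the other starts of DNAJB1 hold a 3-unit match. A match is a description of these letters and does not show that a factor binds there.

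DNAJB1 was higher with hIMP1 wt at both of its probe sets. Its brighter probe set read 530 and 489 with mock and 771 and 714 with hIMP1 wt. The change was 0.53 within number 1 and 0.54 within number 2, and 0.54 ± 0.18 over both. Its dimmer probe set read 324 and 286 with mock and 668 and 456 with hIMP1 wt, with changes of 1.02 and 0.66 (0.84 ± 0.26). The hIMP1 wt arrays lay above both mock arrays at both probe sets, yet neither passed (limma, adjusted p = 1.00). C11orf96 read 244 and 120 with mock and 587 and 289 with hIMP1 wt. Its change was 1.24 and 1.20 within the numbers (1.22 ± 0.38), and the array numbered 2 was the lower one in both groups. It did not pass either, and with the replicate number as a term its adjusted p in limma was 0.132.

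**Figure D1:**
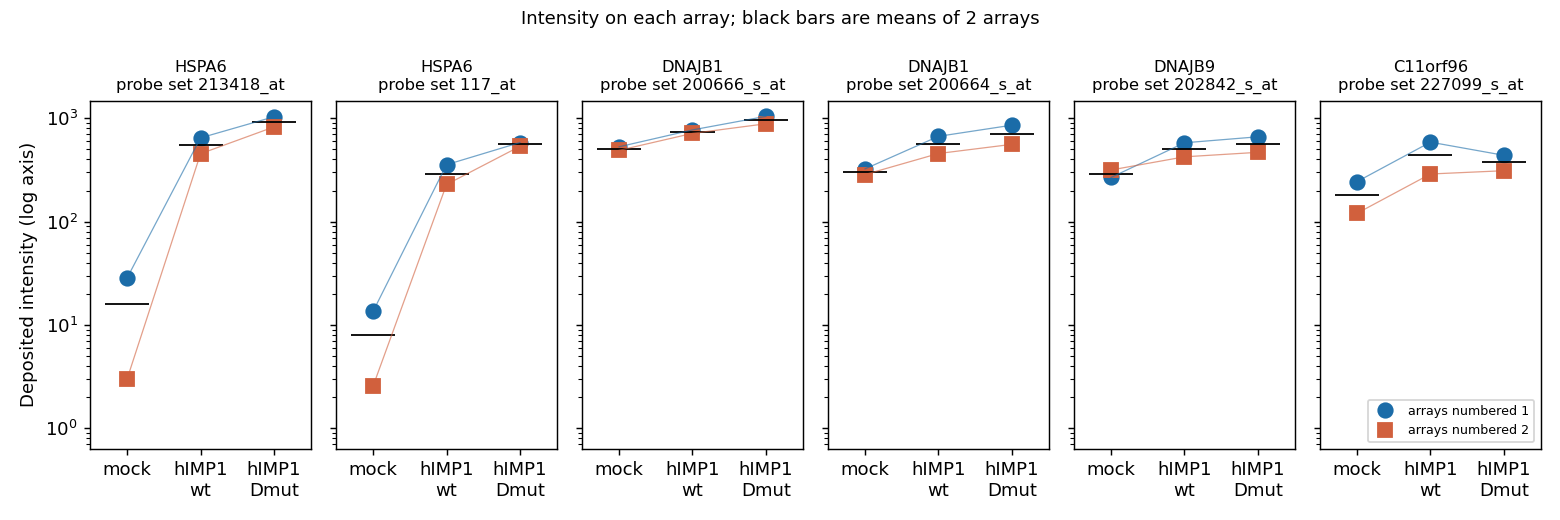
Deposited intensity on a log axis for 6 probe sets of HSPA6, DNAJB1, DNAJB9 and C11orf96 on each array; circles are arrays numbered 1, squares those numbered 2, thin lines join arrays of a number, and black bars are means of 2 arrays. For HSPA6 the mock arrays lie at 28.6 or lower and every array of both constructs at 229 or higher.

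The arrays differed more between the replicate numbers than between the groups. Across the kept probe sets the SD of the change with hIMP1 wt was 0.37 within number 1 and 0.38 within number 2, while the 2 mock arrays differed from each other with an SD of 0.50, as did the 2 hIMP1 wt arrays. The changes within the 2 numbers share no array, and they were almost unrelated: across 27307 probe sets r was 0.04 and rho 0.03, and across the 16439 with a mean intensity of at least 100 r was 0.09, or 0.05 without HSPA6. These correlations are across probe sets, which are not independent replicates, and are given without a test. A change of at least 0.5 in both numbers was found for 198 probe sets upwards (0.725%) and 307 downwards (1.12%), while 459 passed 0.5 in opposite directions. The split depends on the scaling, with 239 higher and 235 lower after quantile scaling, 263 and 231 after median scaling and 239 and 242 after cyclic loess. Past 1, 16 were higher in both (0.0586%), 18 lower in both (0.0659%) and 23 opposite. Among bright probe sets 24 were higher, 32 lower and 37 opposite at 0.5. At 1 there were 3, 1 and 0, respectively. Dim probe sets make up most of these counts, with 174 higher, 275 lower and 422 opposite at 0.5.

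**Figure D2:**
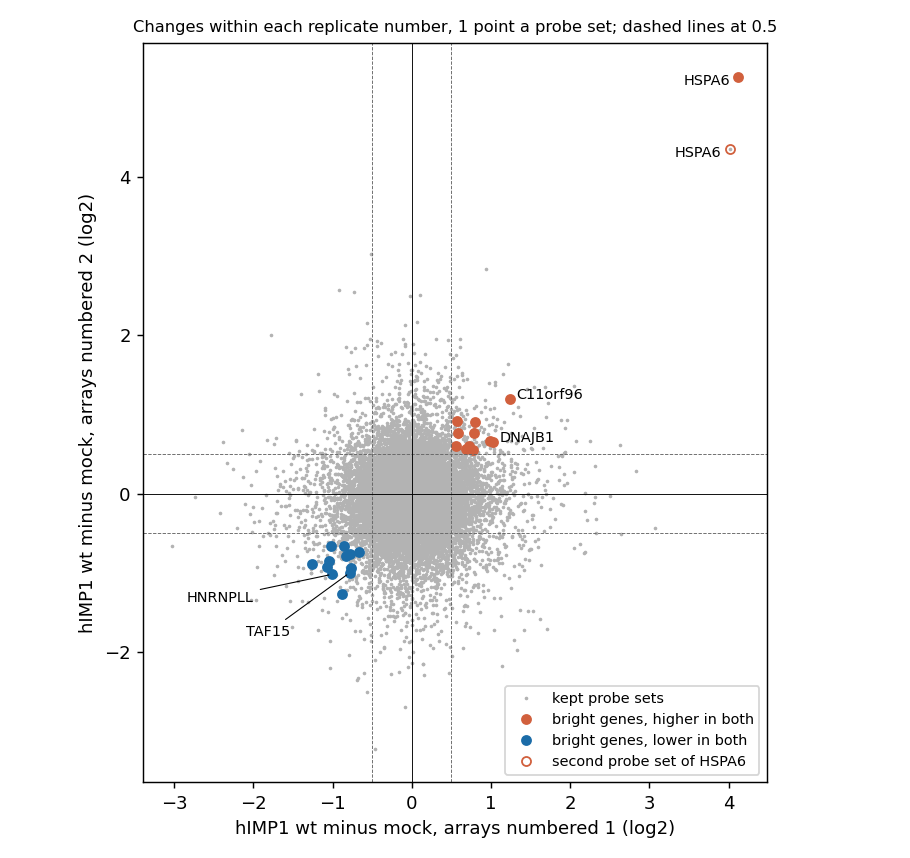
Log2 change with hIMP1 wt within the arrays numbered 1 (x axis) against that within the arrays numbered 2 (y axis) for 27307 kept probe sets; dashed lines mark 0.5, and coloured points are the 12 bright genes named in each direction. HSPA6 lies at 4.12 and 5.26, far from a cloud that shows almost no slope (r = 0.04).

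To describe the differences that repeat, the 12 genes in each direction with the largest smaller-of-2 change were taken from probe sets with a mean intensity of at least 100. The change within the numbers is what chose them, so their size supports nothing. That choice also favours groups that do not overlap, so the overlap counts below are no support either. The last gene taken on the higher side, CASP8, had a smaller change of 0.547 and the first left out, FJX1, 0.546. On the lower side these were PI4KB at -0.659 and PTMS at -0.656. The 2 groups of arrays did not overlap for 10 of the 12 higher genes and 8 of the 12 lower ones, where over all kept probe sets 9.72% lay above with no overlap and 11.6% below. None passed in limma other than HSPA6 (adjusted p = 1.00).

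Of the 12 higher genes HSPA6, DNAJB1 and C11orf96 are described above. The others included DNAJB9, an ER co-chaperone (0.99 and 0.66, with overlap of the groups), and DNAJC5, the cysteine string protein of secretory vesicles (0.72 and 0.61), whose other probe sets gave -0.08 and 0.28. Also higher in both numbers were the transcription factor TCF4 (0.78 and 0.76), the dynein adaptor BICD2 (0.57 and 0.92), the nucleolar ribosome factor HEATR1 (0.58 and 0.77), the ER-shaping REEP3 (0.56 and 0.61) and the initiator caspase CASP8 (0.78 and 0.55). NUS1P3 (0.80 and 0.91), a pseudogene whose probe set may also read NUS1, SZRD1 (0.68 and 0.56) and C11orf96 complete the side.

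The 12 lower genes had varied roles. HNRNPLL, a splicing regulator, read 371 and 209 with mock and 180 and 98.6 with hIMP1 wt (-1.01 ± 0.33 over both numbers). TAF15, an RNA-binding protein of the FET family, read 522 and 432 with mock and 300 and 212 with hIMP1 wt (-0.89 ± 0.22). The hIMP1 wt arrays of both genes lay below both mock arrays. The tRNA methyltransferase gene TRMT44 (-0.67 and -0.73) and the D-aminoacyl-tRNA deacylase gene DTD2 (-1.04 and -0.84) were also among the 12. CTNNBIP1, an inhibitor of beta-catenin, read 109 and 158 with mock and 40.4 and 81.7 with hIMP1 wt (-1.26 and -0.88; -1.07 ± 0.35). PLEKHA5 (-1.08 and -0.92), CFAP69 of the ciliary axoneme (-0.88 and -1.26), the erythropoietin receptor EPOR (-0.83 and -0.78), the cohesin protector SGO1 (-0.77 and -0.94), the dehydrogenase DHRS2 (-0.79 and -0.77), the receptor GPR27 (-1.02 and -0.67) and the lipid kinase PI4KB (-0.86 and -0.66) complete it.

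Other probe sets of the same genes did not all show these differences. On the higher side 10 of the 12 genes had other kept probe sets, and for 5 of these all others had the same sign in both numbers. On the lower side 11 had others and 2 were of that kind. A brighter probe set of HNRNPLL read 686 and 620 with mock and 862 and 761 with hIMP1 wt, a difference of 0.31 in the other direction. The other probe set of TRMT44, a dim one, gave 0.47 and 0.38 within the numbers, against the direction of the first, and the brighter one of DTD2 gave -0.18 and 0.18. For TAF15 the others gave 0.21 and -0.25, for PLEKHA5 0.03, for GPR27 -0.01, and for TCF4 between -0.17 and 0.30 at 7 probe sets. The 3 other probe sets of HEATR1 were brighter and gave 0.24, 0.26 and 0.05. Probe sets of 1 gene can read different ends or forms of its transcripts, and which ones they read was not used here.

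**Figure D3:**
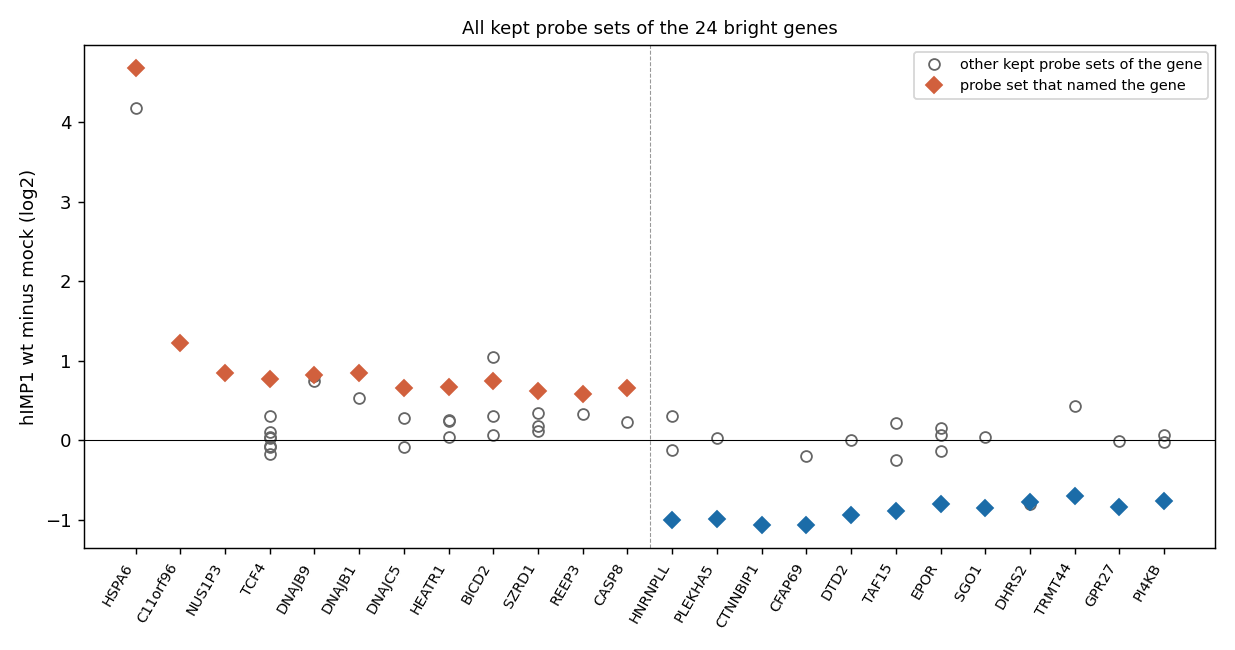
Log2 change with hIMP1 wt over both numbers for every kept probe set of the 24 bright genes; filled diamonds are the probe sets that named the gene (12 higher, 12 lower) and open circles its other kept probe sets. HSPA6, DNAJB1, DNAJB9 and DHRS2 keep their difference at the other probe sets, while the other probe sets of the remaining lower genes lie between -0.25 (TAF15) and 0.43 (TRMT44), and CTNNBIP1 has none.

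A stricter view asks that all kept probe sets of a gene pass 0.5 in both numbers. Of 6190 genes with at least 2 kept probe sets, 3 did so upwards, HSPA6, DNAJB1 and TAGLN, 2 downwards, DHRS2 and MORN1, and 1, BAX, passed 0.5 in opposite directions in the 2 numbers. The filter that kept probe sets is a mean over all 6 arrays. By their mean on the mock arrays alone HSPA6 and TAGLN fall below it, as does MORN1 on the hIMP1 wt arrays. They were kept through the arrays where they read high, so their place here is no support. TAGLN, an actin-binding protein of smooth muscle, was dim: it read 9.48 and 14.2 with mock and 28.9 and 40.2 with hIMP1 wt at 1 probe set (1.03 and 1.08), and 22.3 and 15.6 against 41.6 and 40.4 at the other (0.69 and 1.00). DHRS2 at its brighter probe set read 515 and 217 with mock and 278 and 126 with hIMP1 wt (-0.87 and -0.74; -0.80 ± 0.43), so that the groups overlapped although both numbers were lower. MORN1 was dim as well, at 15.9 to 55.0 on the mock and hIMP1 wt arrays, with -0.69 and -0.96 over both numbers at its 2 probe sets.

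Genes of the unfolded protein response were mostly higher with hIMP1 wt in both numbers. Of the 32 listed 31 were measured, 24 were higher in both numbers (77.4%) and 2, ATF6 and OS9, lower in both. Over all 12269 genes 22.9% were higher in both and 27.8% lower in both. The median change of the list was 0.20, or 0.24 within number 1 and 0.14 within number 2, beside -0.01 over all genes. None passed alone in limma, and none had a change of at least 0.5 in both numbers at its brightest probe set, where 75 genes (0.611%) had one upwards and 117 (0.954%) downwards. The direction of this list was seen before in these arrays, so it is described here and not tested.

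By role, the sensor EIF2AK3 (the kinase PERK) read 373 and 279 with mock and 599 and 380 with hIMP1 wt, above both mock arrays (0.67 and 0.44; 0.55 ± 0.25). The other sensors stood apart from it, ERN1 (the kinase and RNase IRE1) at 0.01 and -0.13 and ATF6 at -0.08 and -0.18. XBP1, the transcription factor that IRE1 activates, was at 0.40 and 0.23. Among chaperones, HSPA5 (BiP, the main HSP70 of the ER) read 3533 and 2575 with mock and 4865 and 3395 with hIMP1 wt (0.46 and 0.40; 0.43 ± 0.27), a difference that showed within each number while the groups overlapped. Its partner HYOU1 read 485 and 638 against 707 and 837 (0.53 and 0.39; 0.46 ± 0.21), without overlap. DNAJB9 read 268 and 316 with mock and 579 and 424 with hIMP1 wt at its brightest probe set (1.09 and 0.41; 0.75 ± 0.24), with 0.83 and 0.81 at the remaining probe sets. Of the degradation factors, EDEM1 was at 0.45 and 0.37, SEL1L at 0.50 and 0.14 and OS9 at -0.12 and -0.25, and HERPUD1, at 0.69 and -0.07, differed in sign between the numbers. In the 250 bases before the start of DNAJB9 no match was found to a heat shock element, to an ER stress element (CCAAT, 9 bases, CCACG), to TGACGTGG or to TTGCATCA, which 0.074%, 0.612% and 0.772% of all promoters hold for the last 3.

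Genes of the COPI and COPII coats, which carry proteins between the ER and the Golgi, were also mostly higher. Of 31 listed 29 were measured, 20 were higher in both numbers (69.0%) and 1, SEC13, was lower in both. The median was 0.10, and 0.10 and 0.12 within the numbers. SEC24D, a cargo adaptor of COPII, read 126 and 57.3 with mock and 195 and 86.6 with hIMP1 wt (0.60 and 0.53), higher within each number with overlap across them. KDELR3, a receptor that returns ER proteins, read 160 and 179 against 241 and 241 (0.57 and 0.41; 0.49 ± 0.21), without overlap. Among subunits of the COPI coat, COPG1 differed by 0.43 and 0.16, COPA by 0.38 and 0.16 and COPB2 by 0.26 and 0.23. ARCN1 differed by 0.19 and 0.26, COPB1 by 0.10 and 0.11, and COPZ1, opposite in the numbers, by -0.08 and 0.24. Leaving out any one of the 4 arrays, the median of the list lay between 0.08 and 0.14, and that of the unfolded protein response between 0.17 and 0.27.

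**Figure D4:**
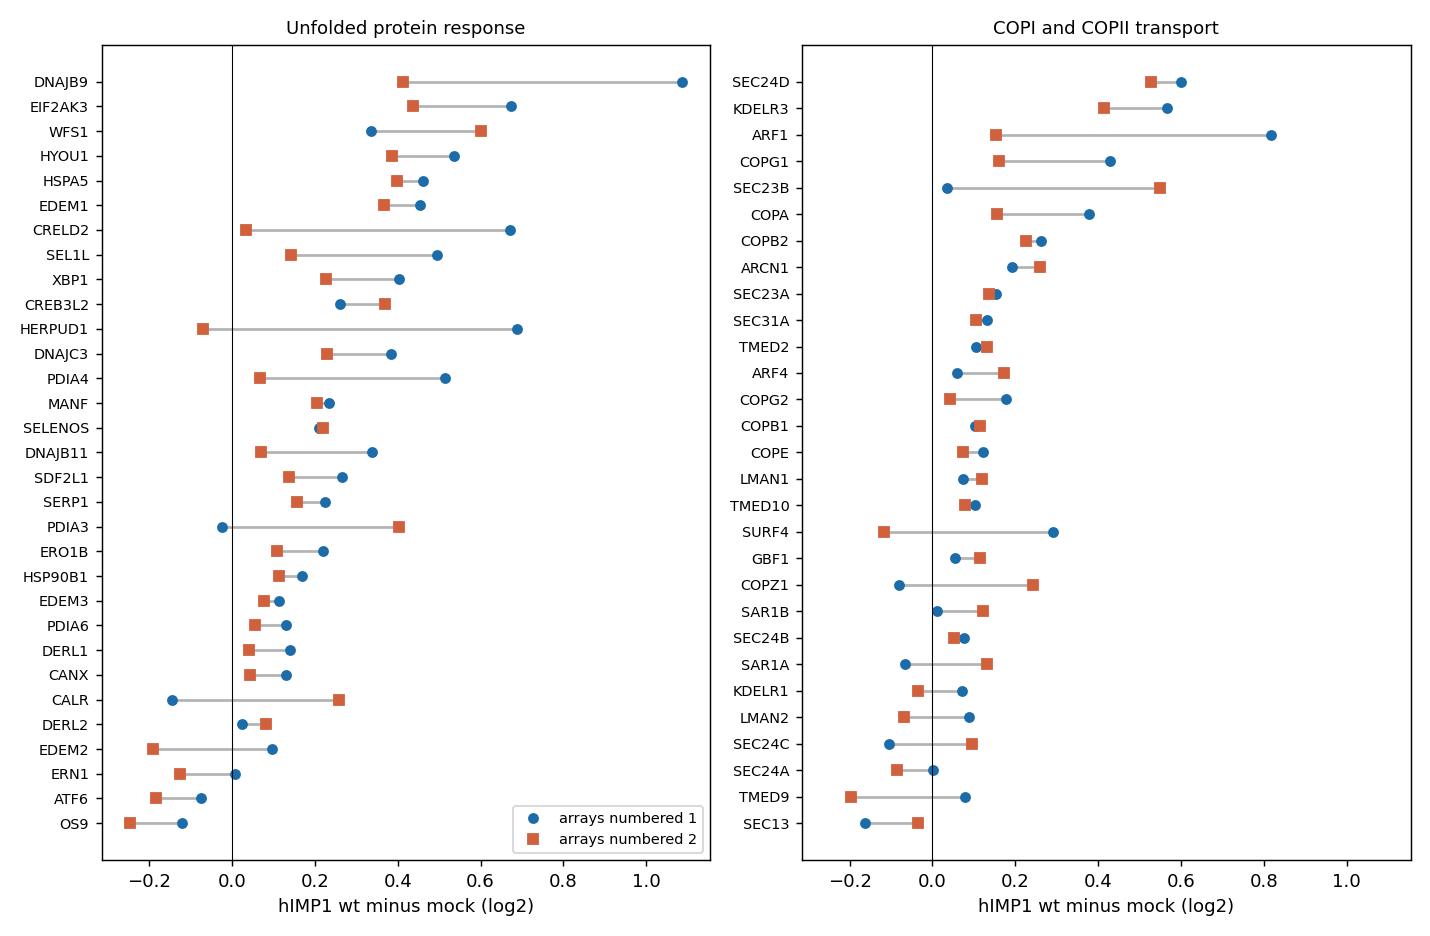
Log2 change with hIMP1 wt within the arrays numbered 1 (circles) and 2 (squares) for each measured gene of the unfolded protein response (31 genes) and of COPI and COPII transport (29 genes), read by its brightest probe set. In 24 and 20 of them both points lie above 0.

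The machinery that brings proteins into the ER and glycosylates them was more mixed. Of 32 measured genes 13 were higher in both numbers (40.6%) and 6 lower in both, with a median of 0.04, which was 0.01 without mock replicate 1 and -0.03 without hIMP1 wt replicate 2. SSR3 of the translocon-associated complex read 1194 and 1189 with mock and 1430 and 1469 with hIMP1 wt (0.26 and 0.30; 0.28 ± 0.17), above both mock arrays, and its 3 other probe sets gave 0.47, 0.68 and 0.25. OSTC and STT3A, subunits of the oligosaccharyltransferase, were at 0.20 and 0.21 and at 0.16 and 0.21. SRP9 of the signal recognition particle, at -0.11 and -0.20, and the signal peptidase subunits SPCS1 and SEC11A, at -0.25 and -0.03 and at -0.17 and -0.09, were lower in both.

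Among the other heat shock genes the differences were small beside that of HSPA6. Of 22 measured genes of the list 12 were higher in both numbers (54.5%) and 3, HSF1, DEDD2 and UBB, lower in both, and 2 passed 0.5 in both, HSPA6 and DNAJB1. The median was 0.16, and 0.05 and 0.18 within the numbers. It was lower with any one of the 4 arrays left out, at 0.13 and 0.08 without mock replicate 1 and 2 and at 0.10 and 0.07 without hIMP1 wt replicate 1 and 2. The collagen chaperone SERPINH1 was at 0.53 and 0.41 and the HSP70 co-chaperone BAG3 at 0.32 and 0.30 (0.31 ± 0.25), with 722 and 500 on the mock arrays and 904 and 619 on the hIMP1 wt arrays. HSPH1, a nucleotide exchange factor of HSP70, was at 0.07 and 0.43. The constitutive HSP90AA1 (0.00 and -0.02) and the mitochondrial HSPD1 (0.03 and -0.08) were close to 0. HSPA1A, HSPA1B and HSPA8 were not read by a kept probe set with a single symbol and are not given.

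Genes of the amino acid response under ATF4 went apart in the 2 numbers. Of 25 genes 4 were higher in both, 5 lower in both and 16 opposite, and the median was 0.12 within number 1 and -0.18 within number 2. DDIT3, the stress factor CHOP, read 221 and 528 with mock and 358 and 475 with hIMP1 wt (0.68 and -0.15), and the glutathione-degrading CHAC1 read 131 and 386 against 160 and 232 (0.27 and -0.71). For both genes the 2 mock arrays differed more from each other than either did from the hIMP1 wt array of its number. The immediate stress gene PPP1R15A was at 0.39 and 0.04 and ATF4 itself at 0.14 and -0.12.

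Genes of cytosolic ribosomal proteins were slightly lower. Of 46 measured genes 27 were lower in both numbers (58.7%) and 1, RPLP2, was higher in both. The median was -0.08, and -0.01 and -0.11 within the numbers. RPL6 read 13191 and 14952 with mock and 12561 and 13063 with hIMP1 wt (-0.07 and -0.19), and RPL7 and RPL22 were at -0.10 and -0.10 and at -0.11 and -0.09. The median of the list was -0.23 without mock replicate 1 and -0.20 when hIMP1 wt replicate 2 was left out, but 0.12 without mock replicate 2 and 0.06 without hIMP1 wt replicate 1. After quantile scaling it was -0.01 and after median scaling -0.02. Genes of oxidative phosphorylation had a median of -0.03, with 22 of 64 lower in both and 10 higher in both. It was -0.15 without mock replicate 1 and -0.18 when hIMP1 wt replicate 2 was left out, but 0.11 without mock replicate 2 and 0.13 without hIMP1 wt replicate 1. With 1 of these arrays left out the groups hold unequal replicate numbers. Such medians, here and below, therefore also take in the difference between the numbers.

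**Figure D5:**
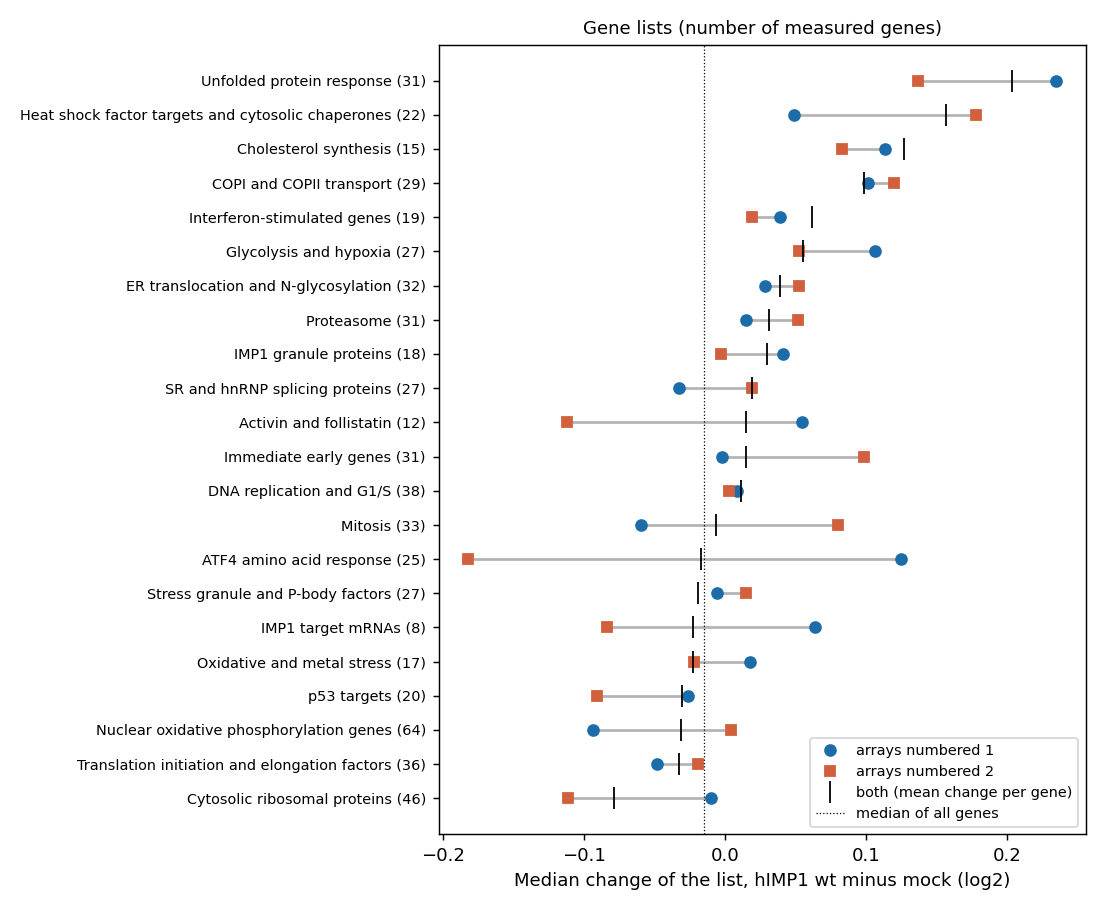
Median log2 change with hIMP1 wt of 22 gene lists, with the number of measured genes in brackets; circles are within the arrays numbered 1, squares within those numbered 2, and bars over both, and the dotted line is the median of all genes (-0.01). The unfolded protein response (0.20), heat shock (0.16), cholesterol (0.13) and COPI and COPII (0.10) lists lie farthest to the right, and ribosomal proteins (-0.08) farthest to the left.

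Cholesterol synthesis genes had a median of 0.13, with 9 of 15 higher in both numbers and 3 lower in both. INSIG1, which holds back sterol synthesis, was at 0.25 and 0.15, the lanosterol synthase LSS at 0.12 and 0.24 and the sterol dehydrogenase NSDHL at 0.13 and 0.19, while the mevalonate decarboxylase MVD, which was dim, was at -0.39 and -0.51. The median was -0.10 without mock replicate 1 and -0.06 when hIMP1 wt replicate 2 was left out, but 0.21 without mock replicate 2 and 0.20 without hIMP1 wt replicate 1.

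The lists tied to IMP1 itself had medians close to that of all genes. Of 14 mRNAs known as IMP1 targets 8 were measured, 2 higher in both numbers and 3 lower in both, with a median of -0.02, or -0.10 to 0.09 with arrays left out in turn. ABCB1, a drug transporter, was at 0.22 and 0.27 and CTNNB1, beta-catenin, at 0.12 and 0.08. MAPT, the neuronal tau, was at -0.10 and -0.18, CD44, an adhesion receptor, at -0.10 and -0.09, and MKI67, a proliferation marker, at -0.45 and -0.07. Other kept probe sets did not all keep these signs. Over both numbers those of MAPT gave 0.10, 0.02 and -0.75, and those of CTNNB1 0.23 and -0.18. That of ABCB1 gave -0.27 and 0.26 within the numbers. MYC, whose coding-region determinant IMP1 binds, read 1413 and 2646 with mock and 1652 and 2242 with hIMP1 wt (0.22 and -0.24), opposite in the 2 numbers. Of 18 proteins of the IMP1 granules 5 were higher in both, 3 lower in both and 10 opposite, with a median of 0.03. The RNA helicase DHX9 (0.16 and 0.28) and ILF2 (0.21 and 0.15) were highest there and YBX1, a core mRNA-binding protein, was at -0.05 and -0.06. Stress granule and P-body factors had a median of -0.02, with 6 of 27 higher and 3 lower in both, among them the decapping activator DCP1A (0.44 and 0.22) and DCP1B (-0.26 and -0.16). Of 27 splicing proteins 6 were higher and 6 lower in both, and only TAF15 was past 0.5.

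Immediate early genes and activin genes held a few larger differences in dim signals. Of 31 immediate early genes 10 were higher in both numbers and 7 lower in both. NR4A1, a nuclear receptor, read 51.9 and 69.6 with mock and 28.7 and 26.9 with hIMP1 wt (-0.69 and -1.13; -0.91 ± 0.36), below both mock arrays. EGR4 was at -0.61 and -1.83, and FOSL1 and FOSL2, partners of JUN, at 1.10 and 0.44 and at 0.39 and 0.86. INHBB, which encodes an activin subunit, read 17.2 and 9.29 with mock and 57.5 and 30.0 with hIMP1 wt (1.34 and 1.09; 1.22 ± 0.41), above both mock arrays. At their brightest probe sets the activin receptor genes differed in direction, ACVR1 at 0.28 and 0.21, ACVR2A at 0.17 and 0.70 and ACVR1B at -0.17 and -0.17. Other kept probe sets did not show this. That of ACVR2A gave 0.003 and -0.011, and those of ACVR1B gave 0.48 and -0.32, and 0.05 and -0.06. None of these passed in limma (adjusted p = 1.00). Over all genes, by the brightest probe set, 108 had an unadjusted p under 0.05 (0.88%).

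The hIMP1 wt arrays were also set against the 2 hIMP1 Dmut arrays, a contrast that uses no mock array. No probe set passed between hIMP1 wt and hIMP1 Dmut in limma (0 of 27307, 0%), and without adjustment 102 were higher and 235 lower with hIMP1 wt at a p under 0.05. On the hIMP1 Dmut arrays HSPA6 read 1033 and 824 (brighter probe set) and 582 and 535 (the other). Each of these arrays lay above the hIMP1 wt array of its number. The difference, hIMP1 wt minus hIMP1 Dmut, was -0.76 with a 95% interval from -1.74 to 0.22 at the brighter probe set, and -0.94 with one from -1.71 to -0.18 at the other (limma, unadjusted p = 0.021, adjusted p = 1.00). For DNAJB1 it was -0.37 (-0.77 to 0.03) and -0.32 (-0.89 to 0.25). TAF15 read 540 and 570 with hIMP1 Dmut, above both hIMP1 wt arrays, a difference of -1.11 (-1.60 to -0.62; limma, unadjusted p = 0.000511, adjusted p = 1.00). CTNNBIP1 likewise read 132 and 181, a difference of -1.29 (-2.06 to -0.52). TAF15 and CTNNBIP1 were named because they read low on these same hIMP1 wt arrays. Part of their difference from hIMP1 Dmut follows from that choice, so it is no separate support. For HSPA5 the difference was 0.20 (-0.40 to 0.80) and for HYOU1 0.18 (-0.28 to 0.64), intervals that hold 0 and the size of the difference from mock alike.

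Several of the differences described above were of a like size on the hIMP1 Dmut arrays against mock, a contrast that shares the mock arrays. These genes were named by their difference from those same mock arrays. Part of the likeness follows from that choice, so it is no separate support. The change was 1.22 with hIMP1 wt and 1.06 with hIMP1 Dmut for C11orf96, and 0.75 and 0.92 for DNAJB9 at its brightest probe set. For EIF2AK3 it was 0.55 and 0.63, for INHBB 1.22 and 1.71, and for NR4A1 -0.91 and -0.91. The direct difference of each had an interval that holds 0, such as -0.17 (-0.70 to 0.37) for DNAJB9 and -0.49 (-1.40 to 0.41) for INHBB. Other named genes were not alike. The change was 0.77 with hIMP1 wt and 0.05 with hIMP1 Dmut for TCF4, 0.66 and 0.04 for DNAJC5, and -0.85 and 0.22 for SGO1. The median of the COPI and COPII list was 0.10 with hIMP1 wt and 0.09 with hIMP1 Dmut, and that of ribosomal proteins -0.08 and -0.09. It was 0.20 and 0.10 for the unfolded protein response, 0.16 and 0.06 for heat shock and 0.13 and -0.02 for cholesterol synthesis.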

How the data were processed

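Total RNA of transfected cells was read on 6 Affymetrix arrays, 1 per sample. The authors deposited 1 linear intensity per probe set and array. Software and scaling were not given in the sources used here. The deposited intensities have the same trimmed mean, 150.02, on every array. Groups came from the sample descriptions and replicate numbers from the titles. The 62 control probe sets were left out, 9.05 (the pooled lower quartile) was added before log2, and probe sets with a mean log2 value at or above the median were kept. That mean runs over all 6 arrays, so a dim probe set can be kept through the group where it reads high. Symbols came from the platform annotation: 41091 probe sets had 1 symbol, 1801 several and 11721 none, and only those with 1 were named. Intensities rank the probe sets of a gene and are summed over marker lists; between genes only changes are set side by side.

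limma 3.58.1 in R 4.3.3 was fitted to all 6 arrays with a mean per group (3 residual degrees of freedom, 7.03 from the intensity-trended prior), two-sided, with Benjamini-Hochberg adjustment at 0.05. The fit was tested on simulated data. A gene in a list is read by its brightest kept probe set. The members and lists were chosen with earlier results of these data known. Named were called genes, the 12 bright genes per direction, genes whose kept probe sets all pass 0.5, the IMP family and, per described list, the 4 members with the largest smaller-of-2 change; other list members were named after their values were seen.

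Whether the numbers pair the arrays was checked by correlating the deviations of same-numbered arrays from their group means over kept probe sets. The correlation was 0.46 for mock and hIMP1 wt, 0.20 for mock and hIMP1 Dmut and 0.22 for hIMP1 wt and hIMP1 Dmut, all over 0.1, so the numbers were taken to pair them. The pairing comes from the sample titles. The main fit leaves the number out, so its SEs, intervals and p-values take in differences between the numbers. With the number as a term the SE was 0.14 and not 0.27 for HSPA5, and 0.18 and not 0.38 for C11orf96. It was 0.41 and not 0.39 at 1 probe set of TAGLN. Alternatives were other scalings, offsets, filters and priors, the replicate number as a term, and each array left out. Promoters are RefSeq's on GRCh38.p14, searched over 250 bases before the start.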

Additional observations from a re-analysis of the deposited data

How the results depend on the processing

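The 2 higher calls, both of HSPA6, were kept with quantile, median and cyclic loess scaling, with an offset at the median, with no filter, with a robust prior and with the replicate block (2 higher and 0 lower calls; adjusted p = 4.66e-06 for both in limma), which changed no call. There was 1 call with an offset at the 10th percentile, where the brighter probe set had an adjusted p of 0.0829 at a change of 5.37, and 1 with probe sets above the 75th percentile only, a filter that removes the second probe set. There were 0 with only the 4 arrays compared and 0 with a prior without trend (adjusted p = 0.419 and 0.202). With arrays left out in turn the higher calls ranged from 0, without either hIMP1 Dmut array, to 3, and the lower calls from 0 to 1. The added calls were a probe set without a symbol (2.93 without hIMP1 wt replicate 2), and SLC34A3, a phosphate transporter (-3.56 without hIMP1 wt replicate 1), both named after their values were seen. In each of these fits hIMP1 wt is a lone array, assumed to vary like the other groups. SLC34A3 read 372 and 228 with mock and 266 and 16.4 with hIMP1 wt, so that the call rests on hIMP1 wt replicate 2 alone. The change of HSPA6 was 3.68 and 3.04 with an offset at the median. Between hIMP1 wt and hIMP1 Dmut there were 0 calls in every fit, and the alternative with only the 4 arrays compared was not run for it.

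The count past 0.5 in both numbers, 198 higher and 307 lower, was 65 and 98 with an offset at the median, 1500 and 1879 with no filter, 17 and 16 above the 75th percentile, and 16 and 18 at a step of 1. Of 1197 values of 72 named probe sets under the alternatives, 1166 kept direction and side of the threshold and 22 changed sign. The filters, the priors, the replicate block, only the 4 arrays compared and a hIMP1 Dmut array left out cannot move the change itself. Values under those alternatives keep their sign by construction, so the 1166 was in large part fixed in advance. All but 1 of the 22 came with an array left out. With a mock or hIMP1 wt array left out the groups hold unequal replicate numbers. The change then also takes in the difference between the numbers. The cause of the changed signs was not tested. Their ranges with arrays left out were -0.23 to 0.29 and -0.015 to 0.93 for IGF2BP1, -0.33 to 0.39 for IGF2BP2, -0.057 to 0.049 and -0.00018 to 0.19 for IGF2BP3, -0.020 to 0.39 for STT3A, -0.32 to 0.13 for CD44, -0.11 to 0.51 for INSIG1, -0.16 to 0.52 for LSS, -0.26 to 0.059 for RPL7, -0.23 to 0.030 for RPL22 and -0.23 to 0.045 for RPL36. The other was IGF2BP3 with median scaling (0.054). The median of all genes lay between -0.033 and 0.042 under all alternatives tried. The number of arrays limits every value, and no depth or detection call was used.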

Other observations

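Of 20 measured p53 targets 8 were lower with hIMP1 wt in both numbers and 2 higher in both, with a median of -0.03. MDM2, the ubiquitin ligase of p53, read 1260 and 955 with mock and 978 and 848 with hIMP1 wt (-0.36 and -0.17), and the cell cycle inhibitor CDKN1A read 488 and 599 against 403 and 544 (-0.27 and -0.14). In both genes each hIMP1 wt array lay below the mock array of its number while the groups overlapped. BAX, which promotes cell death, was at -0.58 and 0.88.

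Of 27 genes of glycolysis and hypoxia 12 were higher in both numbers and 3 lower in both, with a median of 0.06. The collagen hydroxylase P4HA1 was at 0.37 and 0.25 and NDRG1 at 0.43 and 0.19. The median was -0.11 without mock replicate 1 and -0.08 when hIMP1 wt replicate 2 was left out, but 0.23 without mock replicate 2 and 0.19 without hIMP1 wt replicate 1. Among DNA replication genes, 13 of 38 were higher and 11 lower in both, with the licensing factor CDC6 at 0.47 and 0.30 and the origin subunit ORC1 at -0.18 and -0.29. Of 33 mitosis genes 7 were higher and 11 lower in both, with a median of -0.006, or -0.06 and 0.08 within the numbers. With arrays left out in turn that median lay between -0.24 and 0.17. The mitotic kinases AURKB, at -0.36 and -0.51, and PLK1, at -0.19 and -0.34, were lower in both, while CDK1 was at 0.10 and 0.19. Of 19 interferon-stimulated genes 7 were higher and 3 lower in both. Of 17 oxidative and metal stress genes 6 were higher and 6 lower in both, with a median of -0.02. The metallothionein genes MT1G and MT2A were at -0.79 and -0.29 and at -0.92 and -0.05. Other metallothionein genes did not share this. MT1X was at 0.06 and 0.12, while MT1E (-0.12 and 0.07), MT1F (0.22 and -0.42) and MT1H (0.60 and -0.62) were opposite in the numbers.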
